A study of Mus musculus with 4 samples.

Results

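Gene expression was compared between the Ly6C-hi macrophages of livers labelled as lacking mPGES-1 and those of wild-type (WT) livers, taken 48 h after blood flow was restored to an ischaemic liver. The comparison covers 4410 of the 22180 genes on the array. A gene entered when its probe set carried 1 gene symbol and read at least 6 on the log2 scale in the brighter of the 2 Ly6C-hi arrays. For genes with several probe sets, the one whose mean across the 4 arrays was highest was taken. Each value below is a log2 level, and each difference is the array labelled KO minus the WT array, so that a difference of 1 is a 2-fold change.

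The mice were C57/BL6, with 10 WT and 10 mPGES-1 knockout animals, and the study sorted their liver macrophages by Ly6C into Ly6C-hi and Ly6C-low. The groups used here are WT Ly6C-hi and mPGES-1 KO Ly6C-hi, with the WT and KO Ly6C-low arrays set beside them. All 4 were taken at 48 h after reperfusion, and no group without ischaemia and reperfusion is among them. Each group was hybridised to 1 Mouse Gene 2.0 ST array. How many mice stood behind an array, and whether their RNA was pooled, is not stated by the labels. With 1 array a side no difference has a replicate error or a test, so sizes alone are given, and their precision is limited by the number of arrays.

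Ly6C is a surface protein of monocytes that have recently entered a tissue from the blood, and Ly6C-hi monocytes are known for making inflammatory cytokines and chemokines in injured liver before they mature into Ly6C-low macrophages. mPGES-1, encoded by Ptges, is the inducible synthase that turns the product of the cyclooxygenases into prostaglandin E2. Prostaglandin E2 acts on myeloid cells mainly through the receptors EP2 and EP4, which raise cyclic AMP.

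Ptges itself was not lower in the array labelled KO. Its probe set read 5.65 in WT Ly6C-hi, 6.32 in labelled KO Ly6C-hi, 5.69 in WT Ly6C-low and 6.20 in labelled KO Ly6C-low. Both KO arrays were the higher, against the label, and no label says whether its probes fall within the deletion. A probe outside the deletion checks nothing, so the arrays are called by their labels throughout, and every direction below rests on those labels. Ly6c2, which encodes Ly6C, read 7.70 and 8.94 in the WT and labelled KO Ly6C-hi arrays against 3.84 and 4.33 in Ly6C-low. The gate was thus visible in both genotypes, and the Ly6C-hi array labelled KO was the higher for Ly6c2. Macrophage and monocyte genes were well expressed in both Ly6C-hi arrays. Adgre1, an adhesion receptor gene of macrophages, read 8.30 in WT and 7.77 in labelled KO, Cd68 read 10.01 and 9.68, and the receptor gene Csf1r read 8.59 and 9.02. The resident Kupffer cell markers Clec4f, Timd4, Cd163 and Vsig4 were all below 6 in both Ly6C-hi arrays.

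Of the 4410 genes, 910 were at least 2-fold lower in the array labelled KO (20.6%) and 103 at least 2-fold higher (2.34%). The 4-fold mark was passed by 132 genes on the lower side (2.99%) and 11 on the higher side (0.249%). The whole distribution sat below 0, with 3672 genes negative and a median of -0.53. After the median gene was set to 0, which is called centred below, 285 genes passed 2-fold on the lower side (6.46%) and 267 on the higher (6.05%). After a lowess fit on level the shares were 5.76% and 5.94%, and with no floor as deposited 5.17% and 2.31%. The excess of lower genes therefore depended on the scale, and most lists below are given on both. For many lists the count of members at 6 or more in both arrays is added, since the others entered through 1 array. The share to set beside those counts is 14%, that of all genes at 6 or more in both arrays.

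Selection by the brighter array bears on every count. Of the 4410 genes, 2827 read at least 6 in both arrays, 1344 in the WT array alone and 239 in the array labelled KO alone, and a gene that entered through 1 array had to differ. Among the 2827, 396 were lower by 2-fold or more (14%) and 20 higher (0.707%). Just inside the floor stood Mief1 and Rsf1, which differed by -0.59 and -0.62, and just outside it Gbp9 and Thoc5, which differed by -0.40 and -0.29. The difference also moved with level. Its median was -0.69 for the 802 genes with a mean level of 5 to 6, between -0.45 and -0.54 in each bin from 6 to 10, and -0.09 for the 83 genes above 10.

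**Figure D1:**
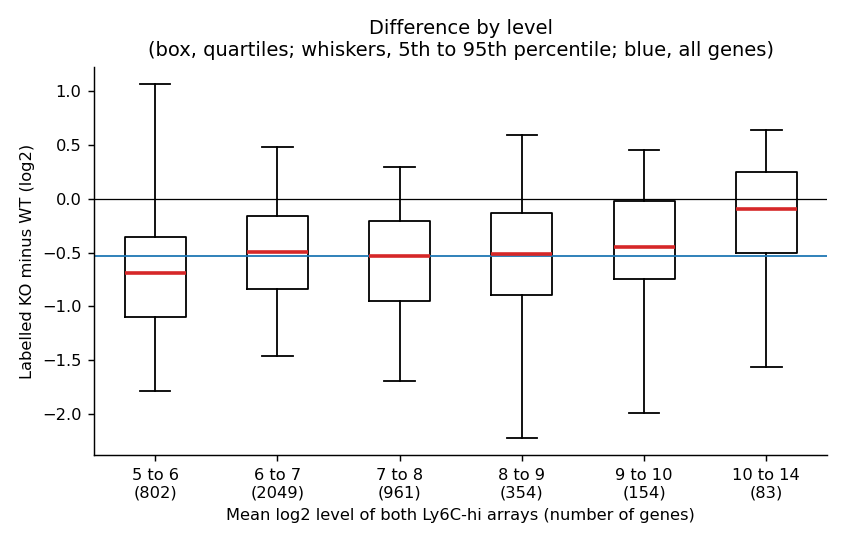
Difference between the Ly6C-hi arrays (labelled KO minus WT, log2) by the mean level of both arrays, with the number of genes in each bin. Boxes span the quartiles, the red line is the median, whiskers run from the 5th to the 95th percentile and the blue line is the median of all genes at -0.53. The medians lie near the blue line up to a level of 10 and at -0.09 above it.

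Inflammatory and neutrophil genes were many of the largest differences. The 15 largest on the lower side among named protein genes were Csta3, Il23a, Cxcl3, Il1a, Csf1, Il1r2, Ptgs2, Slc7a11, Il18rap, Il1f9, Stfa2l1, Cass4, Cd80, Mmp9 and Clec5a, from -4.71 to -3.23. A second probe set of Cass4 read 4.71 and 4.96, the other way. Il23a, a subunit of interleukin-23, read 8.80 in WT and 4.38 in labelled KO Ly6C-hi, and 3.76 and 3.36 in Ly6C-low. Cxcl3, a chemokine that draws neutrophils, read 10.20 and 6.02 in Ly6C-hi, and 6.81 and 6.26 in Ly6C-low. Csf1, the growth factor of macrophages, read 9.51 and 5.86 in Ly6C-hi but 5.97 and 6.91 in Ly6C-low. For each of these 3 genes the WT Ly6C-hi array stood far above the other 3 arrays. Il1a did not follow that pattern, with 9.70 and 5.92 in Ly6C-hi against 8.53 and 8.79 in Ly6C-low, so that the Ly6C-hi array labelled KO was the low one of the 4. Csta3, a stefin found in neutrophils, read 7.33 in WT Ly6C-hi and 2.62, 2.65 and 2.43 in the other 3 arrays. A value so low gives only a rough size. Its difference was -2.42 after the lowess fit, which at a mean level below 6 follows the floor, since genes used there had to differ.

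**Figure D2:**
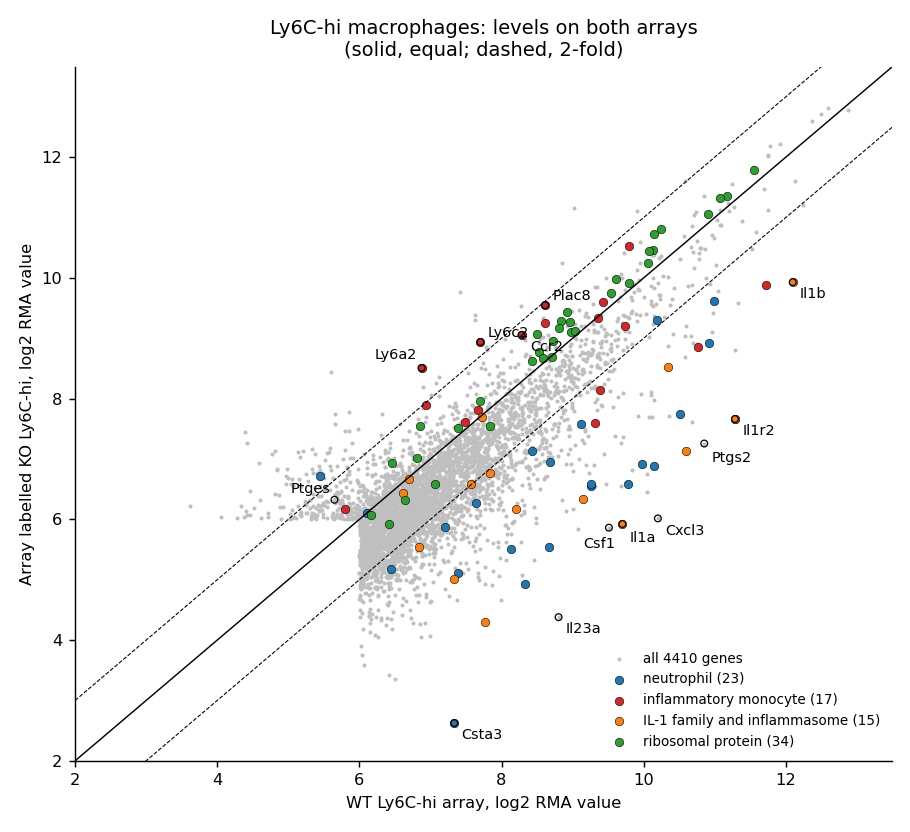
Level of each of the 4410 genes on the WT (horizontal) and labelled KO (vertical) Ly6C-hi arrays, as log2 RMA values. Coloured points mark 4 gene lists, the solid line marks equal levels and the dashed lines a 2-fold difference. Neutrophil and IL-1 family genes lie mostly below the lower dashed line, and the monocyte genes Ly6c2 (7.70 and 8.94) and Ly6a2 (6.87 and 8.51) above the upper one.

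Promoter sequences are shown for Cxcl3, Il1a and Ptgs2, a chemokine, a cytokine and a prostaglandin gene picked after their values were seen, from the RefSeq promoter table (GRCm38.p6, 250 bases before to 50 after the first listed start). Capitals mark matches to motifs searched on both strands: a loose NF-kB pattern (GGG, any 5 bases, CC), AP-1 TGANTCA, C/EBP TTGCNNAA, the cyclic AMP response element TGACGTCA and the TATA box TATAAA. The strict NF-kB consensus and the TATA box were added after the data were seen. Strict NF-kB matches also match the loose pattern, and loose matches on opposite strands can overlap.

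Cxcl3 (chr5:90785851-90786150, plus strand): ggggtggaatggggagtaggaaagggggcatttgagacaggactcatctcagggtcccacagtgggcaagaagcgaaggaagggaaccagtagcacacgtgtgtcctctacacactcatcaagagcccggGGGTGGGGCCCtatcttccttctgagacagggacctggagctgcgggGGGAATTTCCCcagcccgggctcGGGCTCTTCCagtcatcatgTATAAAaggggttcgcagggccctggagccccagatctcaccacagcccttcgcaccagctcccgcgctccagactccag
Il1a (chr2:129309923-129310222, minus strand): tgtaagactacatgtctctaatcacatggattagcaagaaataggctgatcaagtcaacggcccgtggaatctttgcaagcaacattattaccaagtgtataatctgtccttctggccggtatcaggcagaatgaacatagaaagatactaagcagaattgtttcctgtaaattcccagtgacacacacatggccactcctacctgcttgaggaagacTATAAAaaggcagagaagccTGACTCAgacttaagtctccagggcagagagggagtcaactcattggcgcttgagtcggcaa
Ptgs2 (chr1:150099781-150100080, plus strand): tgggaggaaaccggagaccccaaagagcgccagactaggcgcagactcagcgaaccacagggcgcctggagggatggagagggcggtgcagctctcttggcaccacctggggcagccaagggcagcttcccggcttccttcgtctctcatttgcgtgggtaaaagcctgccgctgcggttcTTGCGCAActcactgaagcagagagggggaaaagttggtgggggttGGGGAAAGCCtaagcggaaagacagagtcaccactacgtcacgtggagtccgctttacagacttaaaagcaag

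The Cxcl3 window held a strict NF-kB match, GGGAATTTCC, at -73 from the start, with loose matches at -120 and -50 and a TATA box at -30. Il1a held a TATA box at -32 and an AP-1 match at -12, with no NF-kB pattern in the window. Ptgs2 held the C/EBP match TTGCGCAA at -69 and a loose NF-kB match at -23. The window of Il1r2 held none of these letters, and no Il23a sequence is shown. The loose pattern is common, at 67.7% of the 3520 genes with an entry, 68.4% of the 732 that were at least 2-fold lower and 56.5% of the 108 that were at least 4-fold lower. The strict NF-kB consensus was in 5.74%, 7.38% and 9.26% of these groups, AP-1 in 5.6%, 7.51% and 14.8%, C/EBP in 8.78%, 10.8% and 13%, and the TATA box in 8.41%, 11.3% and 19.4%. The cyclic AMP response element was in 3.64% of all, 3.14% of the lower genes and none of the 108. Over all 27025 promoters of the table, these motifs stood at 50.4% for the loose NF-kB pattern, 4.35% for the strict consensus, 7.93% for AP-1, 10.8% for C/EBP, 14.2% for the TATA box and 1.88% for the cyclic AMP element. AP-1 and the TATA box were thus also frequent outside the genes used here. Among 58 promoters of genes at least 2-fold higher, AP-1 stood at 15.5% and the TATA box at 20.7%, much as in the 4-fold lower genes. The shares are a description of these windows and say nothing of binding.

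Neutrophil markers differed strongly between the Ly6C-hi arrays, and this stands beside every inflammatory group that follows. Of 31 markers with a probe set, 23 passed the floor, 15 of them in both arrays. Of the 23, 20 were lower by 2-fold or more and 1 higher, with a median of -2.27 (14 lower and -1.74 centred), and 13 of the 15 at the floor in both arrays were lower. Summed over the 31 markers on the linear scale, the level was 14.03 (log2) in WT Ly6C-hi, 11.95 in labelled KO Ly6C-hi, 10.61 in WT Ly6C-low and 10.24 in labelled KO Ly6C-low. The calprotectin genes S100a8 and S100a9 differed by -1.38 and -0.89, S100a9 reading 10.19 and 9.30, while Cxcr2, the neutrophil chemokine receptor, read 9.25 and 6.55, and Hdc, which makes histamine, read 9.77 and 6.58. Ly6g, the antigen most used to gate neutrophils, read 6.45 and 5.18, and the granule genes Ngp (8.14 and 5.51) and Lcn2 (8.68 and 6.96) were lower too. Cd177 read 6.11 on both arrays. Elane, Mpo and Prtn3, the early granule proteases and peroxidase of immature neutrophils, were below 6 in all 4 arrays. The exception was Mrgpra2b (5.44 and 6.71), a near copy of Mrgpra2a, which read 9.25 and 6.59, and reads of such copies are hard to separate. The part of neutrophil transcripts in the other differences was not tested. In sorted bulk cells, fewer cells of a type and less RNA per cell cannot be told apart.

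Markers of other cell types were mostly below the floor in both Ly6C-hi arrays. Of 28 sinusoidal endothelial genes 3 passed, Clec4g (6.75 in WT and 5.66 in labelled KO), Ehd3 (7.03 and 6.29) and Fcgr2b, which macrophages also express (8.52 and 8.73), and the rest were low. Of 19 hepatocyte genes 8 passed, with Alb at 10.15 and 9.83, Fabp1 at 7.42 and 6.06 and Mup3 at 9.55 and 8.46, a median of -0.56, close to the -0.53 of all genes. The platelet chemokines Pf4 (8.80 and 7.05) and Ppbp (7.33 and 6.18) were at least 2-fold lower and Gp9 (5.07 and 6.55) higher, 3 of 7 platelet genes. Siglecf of the eosinophil, basophil and mast cell list (7.53 and 5.18) and the granzyme gene Gzma of the NK list (-2.23) were at least 2-fold lower. So was Il7r of the T cell list (6.13 and 4.40). Otherwise the passing members were Nkg7 for NK cells, Ighm for B cells (8.55 and 8.74), Cd209a and Batf3 for conventional dendritic cells, Bst2 and Tcf4 for plasmacytoid dendritic cells and Acta2 for stellate cells. No cholangiocyte gene of 5 and no erythroid gene of 3 passed. The summed level of the sinusoidal list was 10.34 in WT and 10.07 in labelled KO Ly6C-hi, against 13.27 and 14.52 in Ly6C-low.

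Interleukin-1 family genes had the lowest median of the function lists with at least 5 passing members. Of 21 with a probe set 15 passed the floor, and 11 of these were at least 2-fold lower, with none higher and a median of -2.03 (9 and -1.50 centred). Among the 11 at the floor in both arrays 7 were lower. Il1r2 is the 1 passing member that is also on the neutrophil list, and 10 of the other 14 were lower. Which cells the transcripts of those 14 came from was not tested. Il1b, the secreted cytokine, read 12.10 in WT and 9.93 in labelled KO Ly6C-hi, and 9.31 and 8.33 in Ly6C-low. Its natural antagonist gene Il1rn read 9.15 and 6.33, and the decoy receptor gene Il1r2 11.28 and 7.66. Agonist, antagonist and decoy were thus all lower under the KO label. The accessory receptor chains Il1rap (7.33 and 5.01) and Il18rap (7.77 and 4.30) differed by -2.32 and -3.47.

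The inflammasome members of the list were spread from -2.03 to -0.02. Nlrp3, which senses danger signals, read 10.34 and 8.52, the pyrin gene Mefv 8.20 and 6.17, and the DNA sensor Aim2 7.84 and 6.77. The adaptor Pycard (7.73 and 7.69), the protease Casp1 (6.70 and 6.67) and the pore former Gsdmd (6.62 and 6.44) read nearly the same on both arrays. Casp4 read 7.57 and 6.58, a difference close to that of Aim2.

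Chemokine genes were lower in part. Of 19 CXC chemokine and receptor genes 9 passed, 7 of them lower by 2-fold or more, with a median of -1.54 (5 and -1.01 centred). Members at the floor in both arrays were lower in 6 of 7. Cxcl2 read 10.58 and 9.04 and Cxcl1 6.16 and 4.13, and both bind Cxcr2 as Cxcl3 does. Cxcr4, the receptor that holds leukocytes in marrow and tissue, read 10.60 and 9.20. Cxcl10 (6.52 and 5.65) and Cxcl16 (7.59 and 7.27) differed by less than 2-fold.

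Of 18 CC chemokine and receptor genes 12 passed, 5 of them lower by 2-fold or more, with a median of -0.81 (2 lower and 2 higher, -0.28, centred). Members at the floor in both arrays were lower in 5 of 10. The lower genes were Ccrl2 (11.28 and 8.81), Ccr1 (8.29 and 6.57), Ccl3 (10.34 and 8.87), Ccl5 (7.84 and 6.76) and Ccl4 (7.70 and 6.67). Ccl2, the main ligand that brings Ly6C-hi monocytes out of marrow, read 7.96 and 7.65, and Ccl7, which binds the same receptor, 6.41 and 5.43. That receptor, Ccr2, read 8.28 and 9.06, and Cx3cr1, the fractalkine receptor, 7.71 and 8.51. The monocyte receptors were therefore the higher under the KO label, by 0.77 and 0.80, below the 2-fold mark as deposited and above it when centred.

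**Figure D3:**
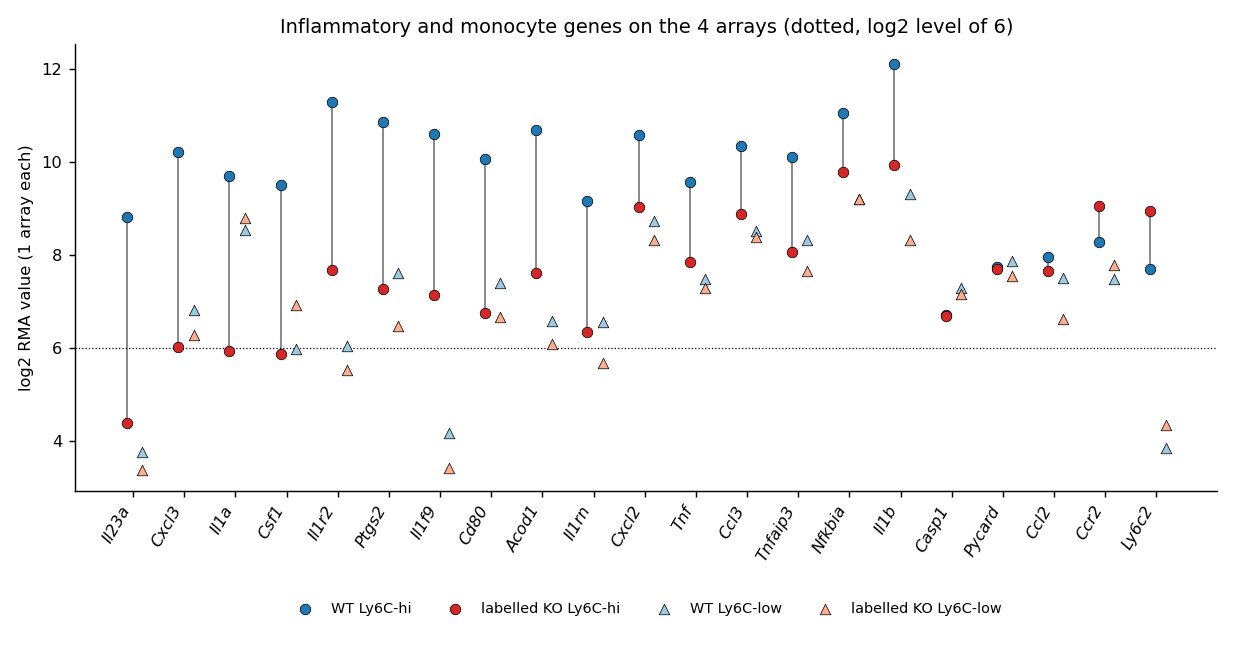
Levels of 21 inflammatory and monocyte genes on the 4 arrays (log2 RMA value, 1 array each). Circles are Ly6C-hi, joined by a line, and triangles are Ly6C-low. For most cytokine genes the WT Ly6C-hi array is well above the other 3, while Casp1, Pycard and Ccl2 read alike on both Ly6C-hi arrays and Ccr2 and Ly6c2 are higher under the KO label.

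Among cytokines of the TNF, interleukin-6, interleukin-10 and interleukin-12 families, 4 of 10 passing genes were at least 2-fold lower (median -0.86, with 3 and -0.33 centred), and 2 of the 8 at the floor in both arrays. The 4 were Il23a, Tnf (9.57 and 7.85), Ebi3 (6.23 and 4.38), which encodes a subunit of interleukin-27, and Osm (7.48 and 6.19). The receptor genes Tnfrsf1a, Tnfrsf1b, Il6ra, Il6st, Il10ra and Il10rb differed by -0.18 to -0.89. Il6, Il10 and Il12b were below 6 on all 4 arrays. In the colony-stimulating and growth factor list 6 of 10 were at least 2-fold lower (median -1.34, with 4 and -0.81 centred) and 4 of the 8 at the floor in both arrays, with Vegfa at 9.30 and 6.89, Igf1 at 7.34 and 5.54 and Csf3r, the receptor for granulocyte colony-stimulating factor, at 10.91 and 8.92. Csf1 and its receptor went apart, with Csf1r at 8.59 and 9.02.

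Prostaglandin genes were spread widely. Of 21 with a probe set 9 passed, 2 of them lower by 2-fold or more, with a median of -0.34 (1 lower, 2 higher and 0.19 centred). Members at the floor in both arrays were lower in 1 of 5 and higher in none. Ptgs2, the inducible cyclooxygenase, read 10.85 and 7.26 in Ly6C-hi and 7.61 and 6.47 in Ly6C-low, lower under the KO label in both fractions. Ptger2, which encodes EP2, read 6.33 and 5.24, while Ptger4, which encodes EP4, read 6.20 and 6.14. Pla2g4a, the phospholipase that frees arachidonic acid, read 7.11 and 6.29. The degrading enzyme Hpgd read 5.34 and 6.21, so Hpgd and Ptges were the 2 members higher under the KO label, both at least 2-fold only when centred. Both entered through the array labelled KO alone, so the floor fixed their direction. Ptger2 entered through the WT array alone, which fixed its direction too. In the leukotriene list 3 of the 4 passing genes were lower, Alox5 (8.48 and 6.02), Alox15 (7.60 and 6.26) and Pla2g7 (8.80 and 7.46), whereas Alox5ap, the partner of Alox5, read 10.80 and 10.49. The median of these 4 was -1.34 as deposited and -0.80 centred, where Alox5 alone remained at least 2-fold lower.

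Genes of cyclic AMP signalling lay close to the median gene. Of 9 passing members Rgs1 (8.95 and 7.55) was at least 2-fold lower, the median was -0.70 (-0.17 centred) and none passed the 2-fold mark when centred. The response gene Per1 (-0.95) and the factor gene Creb1 (-0.84) were within 2-fold, and Sik1 read 9.55 and 8.84.

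The NF-kB list holds subunits, kinases and feedback inhibitors. Of 18 passing members of the NF-kB list 10 were lower by 2-fold or more, with a median of -1.09 (4 and -0.56 centred). They were Tnfaip3 (10.10 and 8.06), which encodes A20, Nfkbie (7.54 and 5.62), Nfkbid, Nfkbiz, Irak3, Zc3h12a, Nfkbia (11.04 and 9.78), Tnip1, Birc3 and Ikbke. The subunit genes Nfkb2, Rela, Relb and Rel differed by -0.79 to -0.28, and Nfkbib and Bcl3, related to the inhibitors, by 0.19 and -0.23. Members of the list at the floor in both arrays were lower in 6 of 11. In Ly6C-low Tnfaip3 read 8.32 and 7.65 and Nfkbia 9.19 and 9.21.

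Immediate early genes spanned a wide range. Of 26 passing members 11 were at least 2-fold lower as deposited (median -0.65) and 4 when centred (-0.12). Those at the floor in both arrays were lower in 9 of 23. Egr1, Egr2 and Egr3 read 8.54 and 7.22, 8.06 and 6.05, and 6.75 and 4.28. Fos (7.87 and 7.71), Fosb (9.86 and 9.90), Jun (9.54 and 9.68) and Atf3 (9.03 and 9.08) read alike on both arrays. Dusp1, a phosphatase that ends MAP kinase signals, read 12.23 and 11.20. Handling and digestion of tissue are also known to induce genes of this kind, both those that read alike and those that were lower. Their part in these values was not tested.

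Sensors of microbes and danger spanned differences from -2.77 to 0.30. Of 17 passing members 10 were lower by 2-fold or more, with a median of -1.47 (7 and -0.94 centred), and 7 of the 13 at the floor in both arrays were lower. The formyl peptide receptor gene Fpr2 read 9.32 and 6.55, Trem1 10.51 and 7.75, and Cd14, the co-receptor for endotoxin, 10.15 and 7.98. Tlr2, Tlr4, Tlr5 and Tlr6, which act at the surface, differed by -1.10, -1.76, -1.47 and -1.48. Tlr7, Tlr8 and Tlr9, which act in endosomes, differed by 0.02, -0.16 and 0.30. Endosomal Tlr13 read 8.95 and 7.39 and surface Tlr1 7.14 and 6.57.

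Of 12 passing C-type lectin genes 5 were at least 2-fold lower and none higher (median -0.89), and 4 lower and 1 higher when centred (-0.35). Those at the floor in both arrays were lower in 4 of 8. Clec4n, Clec4d and Clec4e encode the receptors Dectin-2, Mcl and Mincle. They read 9.83 and 6.82, 10.36 and 7.71, and 11.72 and 9.88. Clec5a read 9.07 and 5.84 and Clec7a, which encodes Dectin-1, 10.93 and 9.90. Clec4a1 (7.35 and 7.93) and Clec4a3 (7.98 and 8.43), of the same gene cluster, were the higher under the KO label by 0.58 and 0.45.

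Costimulatory genes gave few values. Of 7 passing members 4 were at least 2-fold lower (median -1.19, with 3 and -0.66 centred), namely Cd80 (10.05 and 6.75), Cd274 (7.76 and 4.93), which encodes PD-L1, Icosl (6.04 and 4.45) and Tnfsf9 (7.07 and 5.88). All but Cd80 of these were below 6 under the KO label, so 1 of the 4 members at the floor in both arrays was lower, with a median of -0.70 over those 4. Icosl turned to 0.20 after the lowess fit, which at its mean level follows the floor. Cd86, the other ligand of CD28, read 7.95 and 8.26. Class II presentation genes were near equal, with 0 of 7 passing members at least 2-fold different and a median of 0.14 (0.67 centred). H2-Ab1 read 10.57 and 10.70 and Ctss, the protease that trims the invariant chain, 11.18 and 11.34.

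Genes that mark recruited monocytes lay above the median gene. Of 17 passing members 2 were at least 2-fold higher and 4 lower, with a median of 0.18, and 7 were higher and 3 lower when centred (0.71). Ly6a2, a neighbour of Ly6c2, read 6.87 and 8.51, Plac8 8.61 and 9.55, Ms4a4c 6.93 and 7.90, and Fn1, which encodes fibronectin, 9.80 and 10.54. Lyz2, the macrophage lysozyme, read 9.36 and 9.33, and Chil3 7.49 and 7.61. The 4 lower members were Thbs1 (10.76 and 8.85), Clec4e, Gsr (9.32 and 7.59) and Cd44 (9.39 and 8.15). Of 9 passing genes of non-classical monocytes 2 were lower, Fabp4 (8.18 and 6.13) and Cd36 (8.64 and 6.71). The list median was 0.11, and when centred 2 were lower and 2 higher (0.65). Ace and Eno3 entered only through the array labelled KO, and over the 7 members at the floor in both arrays the median was -0.62. Myeloid transcription factors differed less, with 1 of 10 at least 2-fold lower (median -0.40) and none when centred (0.14): Cebpd read 7.05 and 5.70, and Spi1, which encodes PU.1, 7.03 and 6.57.

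Adhesion genes had a median close to that of all genes. Itgax, which encodes CD11c (8.09 and 5.85), Icam1 (8.62 and 6.70) and Cd44 were at least 2-fold lower among 12 passing members (median -0.58, with 2 lower and -0.05 centred). Itgam, which encodes CD11b, read 9.43 and 8.76 and Itga4 9.18 and 9.20. The Fc receptor, oxidase and lysozyme list had 3 of 11 lower (median -0.21, with 1 lower, 1 higher and 0.32 centred), with the cytosolic oxidase subunits Ncf1 (7.68 and 5.76) and Ncf4 (8.39 and 7.32) and the receptor Fcgr4 (8.35 and 7.25), while the membrane subunits Cybb (9.32 and 9.85) and Cyba (10.52 and 10.31) differed by 0.53 and -0.21.

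Of 13 passing genes of polarised and repair macrophages 8 were at least 2-fold lower and none higher (median -1.12, with 5 and -0.59 centred). Among the 9 at the floor in both arrays 5 were lower. Acod1, which makes itaconate in inflammatory macrophages, read 10.68 and 7.62. Arg1 (-1.19) and Retnla (7.43 and 5.68), known as genes induced by interleukin-4, were lower as well, with the interleukin-4 receptor gene Il4ra (8.56 and 7.43). Chil3, also known as an interleukin-4 gene, read 7.49 and 7.61. In the arginine and polyamine list 2 of 6 were lower, Arg1 and Arg2 (8.28 and 5.62), with a median of -0.28 (1 lower and 0.25 centred). Tgfb1 read 7.34 and 7.66, and Mrc1 6.42 and 5.97.

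Of 17 passing genes of lipid-loaded macrophages 8 were at least 2-fold lower (median -0.94, with 6 and -0.41 centred): Cd63 (10.12 and 7.70), Gpnmb (9.44 and 7.07), Fabp4, Cd9 (8.91 and 6.92), Cd36, Fabp5 (10.96 and 9.10), the cholesterol exporter Abca1 (8.15 and 6.87) and the lysosomal lipase Lipa (8.99 and 7.88). The others ran from the lipid droplet gene Plin2 (-0.94) and Trem2 (-0.78) to Apoe (0.09) and Apoc2 (0.20). Members of this list at the floor in both arrays were lower in 8 of 16. Lysosome genes stood near the median gene, with 6 of 23 lower, a median of -0.62 (1 lower and -0.09 centred) and Ctsd at 8.75 and 7.58.

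Kupffer cell genes gave few values, since 8 of 18 passed, 3 of them at least 2-fold lower (median -0.72, with 1 and -0.19 centred). The iron exporter Slc40a1 (6.92 and 4.28) and Il18bp (6.84 and 5.54) entered only through the WT array, and over the 5 members at the floor in both arrays 1 was lower, with a median of -0.32. Complement and efferocytosis genes were lower in 7 of 13 as deposited (median -1.04), in 2 when centred (-0.51) and in 4 of the 10 at the floor in both arrays (-0.68), among them the anaphylatoxin receptors C5ar1 (6.69 and 5.40) and C5ar2 (7.83 and 6.26), C1qb (-1.07) and the clearance receptor Mertk (7.45 and 6.41). Axl, a receptor of the same family, read 7.52 and 7.30. Heme and iron genes lay at the median gene: 4 of 11 were at least 2-fold lower as deposited (median -0.54), 1 when centred, and 1 of the 7 at the floor in both arrays (-0.53), with Hmox1 at 7.88 and 7.35 and Fth1 at 11.75 and 11.12.

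Of 14 passing genes of cystine, glutathione and thioredoxin metabolism 7 were at least 2-fold lower (median -0.85, with 3 and -0.32 centred). Members at the floor in both arrays were lower in 6 of 12. The cystine carrier gene Slc7a11 read 10.04 and 6.45, Nfe2l2, which encodes Nrf2, 7.64 and 6.06, Txn1 8.25 and 6.95, Txnrd1 7.94 and 6.81 and Sod2 7.27 and 6.13. Slc3a2, the partner chain of Slc7a11, read 8.56 and 8.63, Gpx1 9.93 and 9.96 and Sod1 11.07 and 10.88. The other lower members were Gsr and Gclm (6.06 and 4.88). Gclm turned to 0.18 after the lowess fit, which at its mean level follows the floor. Gclc, the partner of Gclm, read 6.19 and 5.65.

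Of 16 passing genes of glycolysis and hypoxia 9 were at least 2-fold lower (median -1.17, with 5 and -0.64 centred), and 4 of the 11 at the floor in both arrays (-0.87). The glucose carriers Slc2a1 and Slc2a3 read 9.34 and 7.82, and 8.85 and 6.32. The oxygen sensor Egln3 read 7.96 and 5.06 and the lactate exporter Slc16a3 8.27 and 6.07. Of the glycolytic enzymes, Hk3 (6.53 and 5.07) and Pfkp (8.51 and 7.45) were lower, Tpi1 (-0.87), Pgk1 (-0.68) and Pkm (-0.47) were within 2-fold, and Gapdh read 10.25 and 10.35. Of the hypoxia genes, Hif1a read 8.26 and 7.58 and Ndrg1 7.06 and 6.90.

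Proteases and clotting genes were lower in part. The matrix protease list had 4 of 9 lower, with a median of -0.77 (2 lower and -0.24 centred). They were Mmp9 (10.15 and 6.88), Adam8 (9.03 and 7.23), Mmp8 (9.11 and 7.59) and Mmp25 (6.57 and 5.23). Matrix protease members at the floor in both arrays were lower in 3 of 6. The neutrophil list also holds Mmp8 and Mmp9, and without them 2 of 7 were lower, with a median of -0.60. The coagulation list had 5 of 9 lower, with a median of -1.24 (4 lower and -0.70 centred), and 3 of the 6 at the floor in both arrays: F3, which encodes tissue factor (6.55 and 4.85), Serpinb2 (6.26 and 4.04), the urokinase receptor Plaur (10.67 and 9.04), Thbs1 and F5 (7.37 and 6.13). F10 read 7.59 and 7.57 and F13a1 7.67 and 7.80.

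Of 11 passing apoptosis regulators 8 were at least 2-fold lower (median -1.18, with 4 and -0.64 centred), and 4 of the 6 at the floor in both arrays. The protectors Bcl2a1a (9.46 and 6.58), Mcl1 (8.32 and 7.15) and Bcl2l1 (-1.83) were among them, as were the death receptor Fas (6.90 and 5.26) and the killer Bcl2l11 (7.10 and 6.05). Bcl2a1a belongs to a family of near copies, so its value is uncertain as to the member.

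Interferon response genes were close to the median gene, with 3 of 20 passing members at least 2-fold lower (Rsad2, Oasl2 and Cmpk2) and a median of -0.72. When centred none was lower and 2 were higher (-0.18). Stat2 (-0.31), Irf7 (-0.07) and Irf9 (-0.24) were near equal, and Ifit3 read 5.40 and 6.08. Unfolded protein and heat shock genes were lower in 2 of 18, Chac1 (7.06 and 5.50) and Sesn2 (6.88 and 5.39), with a median of -0.40 (1 lower, 1 higher and 0.13 centred), and Hspa1a read 9.73 and 10.41. Of 31 cell cycle genes 3 passed, Kif23 (6.59 and 4.41), Cdkn1a (9.48 and 8.74) and Pcna (9.14 and 8.77).

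Housekeeping complexes stood at or above the median gene. Of 34 passing ribosomal protein genes none was 2-fold different as deposited, 28 were higher under the KO label and the median was 0.23. When centred 5 were at least 2-fold higher and none lower (0.76). Rps6 read 11.56 and 11.79, Rpl4 10.24 and 10.82 and Rpl28 10.14 and 10.72. Oxidative phosphorylation subunits had 0 of 54 at 2-fold (median -0.23, and 0.31 centred). Proteasome subunits had 2 of 31 lower, Psmd7 and Psmd10 (median -0.32), and none at 2-fold when centred (0.21). Among all genes 20.6% were at least 2-fold lower. Ribosomal protein genes have many processed copies in the genome, which the probe sets may share.

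**Figure D4:**
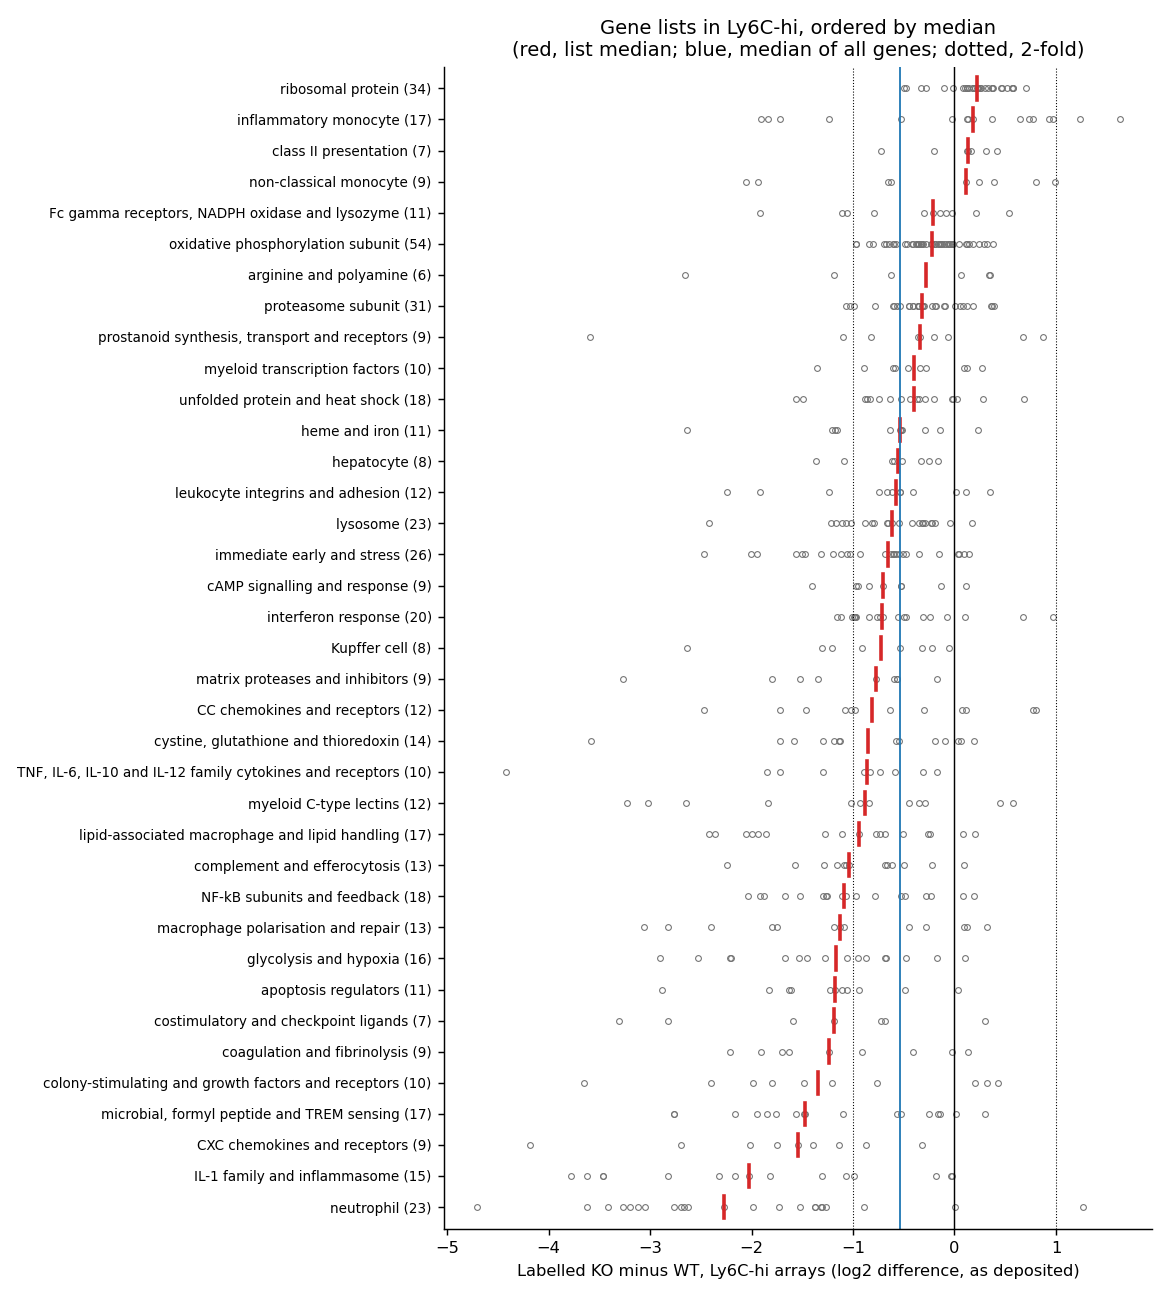
Difference of each passing member (open circles) of the gene lists with at least 5 such members, ordered by list median (red bars), in log2 as deposited. The blue line is the median of all 4410 genes at -0.53 and the dotted lines mark 2-fold. Neutrophil (-2.27) and IL-1 family (-2.03) genes have the lowest medians, and the non-classical monocyte list is above 0 only with members that entered through the array labelled KO.

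Across the 35 function lists with at least 5 passing members, 24 had a median below that of all genes and 11 above it. The 4 with a median above 0 were the ribosomal protein, inflammatory monocyte, class II and non-classical monocyte lists, the last of them below 0 over its members at the floor in both arrays. Inflammatory monocyte genes were the 1 list of these 35 with any member at least 2-fold higher as deposited.

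The genes at least 2-fold higher under the KO label were of another kind. Of the 103, 83 reached the floor only in the array labelled KO, 29 were olfactory or vomeronasal receptor genes, which macrophages are not known to use, and 16 were microRNA hairpins. Over all 1444 chemosensory receptor genes on the array, with no floor, the Ly6C-hi arrays had a median difference of 0.32 and the Ly6C-low arrays of -0.14, against 0.07 and -0.03 for all 22180 genes. Their median level was 2.45 in WT and 2.85 in labelled KO Ly6C-hi, so the dim end of the array labelled KO read higher.

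Among the other genes the 15 largest were Csprs, Pla2g10os, Astx5, Ly6a2, Speer4cos, Srsy, Smok4a, Gp9, Rtkn2, Gip, Arhgef37, Mrgpra2b, Scgb1b3, Ly6c2 and Pramel24, from 2.02 to 1.23, most of them below 6 in WT. The 20 genes at least 2-fold higher with both arrays at 6 or more are the firmer set, and these were picked after their values were seen. Beside Ly6a2 and Ly6c2 they held Tmem176b, a membrane protein gene of myeloid cells (7.08 and 8.26), Erdr1 (9.90 and 11.11), the ribosomal stalk gene Rplp1 (10.58 and 11.60), Tifab (6.07 and 7.09), Ccnq (6.56 and 7.57) and Scgb1b3 (8.28 and 9.53). The rest were predicted genes, small RNAs and 2 chemosensory receptors. In Ly6C-low Erdr1, Tmem176b, Rplp1, Ly6c2 and Ccnq were also higher under the KO label, by 0.96, 0.68, 0.60, 0.49 and 0.16. Most of the 20 went the other way there: Scgb1b3 (-0.57), Ly6a2 (-0.19), Tifab (-0.18) and all the genes not named here were lower. A second probe set of Rplp1 read 5.93 and 5.83, and the 3 probe sets of Csprs differed by 2.02, 0.32 and -0.75.

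MicroRNA loci are measured on this array through the hairpin or its host transcript, not the mature form. Of 59 that passed the floor 16 were at least 2-fold higher and 7 lower, where the shares of all 4410 genes were 2.34% and 20.6%. Through the array labelled KO alone 14 of the 59 had entered, and these had to be higher there. Mir23a and Mir27a, neighbours in 1 cluster, were chosen after their values were seen and read 7.04 and 5.54, and 7.18 and 5.32. In Ly6C-low they read 5.89 and 5.41, and 6.31 and 5.93. Their mature 3p forms (RefSeq, GRCm38.p6, plus strand), with the seed, bases 2 to 8, in capitals, are shown to identify the loci:

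miR-23a-3p (chr8:84208563-84208583): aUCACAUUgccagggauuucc
miR-27a-3p (chr8:84208727-84208747): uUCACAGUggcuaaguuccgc

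Several lower genes lay side by side in the genome. Among 4407 genes placed in RefSeq GRCm38.p6, there were 9 runs of at least 4 neighbouring genes that were all at least 2-fold lower. Neighbours were counted among the genes used and lay less than 500 kb apart. Since 20.6% of single genes were lower, some such runs arise without any clustering. How many do was not tested, so the runs are a description of position only. The longest, of 6, ran from Bcl2l11 through the long noncoding gene Morrbid, Mertk and the phosphate carrier Slc20a1 to Il1a and Il1b. The next, of 5, was the chemokine cluster Ppbp, Pf4, Cxcl3, Cxcl1 and Cxcl2. Runs of 4 included Cd81, Nap1l4, Tnfrsf26 and Tnfrsf23, and also Vps39, Tmem87a, Zfp106 and Snap23. The other runs of 4 held the stefins Stfa2l1, Csta3 and Stfa1 with Fam162a, and the Schlafen genes Slfn1, Slfn2 and Slfn4 with Gm20234. They also held the Trim12a and Trim30 genes, Birc2 and Birc3 with Mmp8 and Tmem123, and Ncf4, Csf2rb2, Csf2rb and Il2rb. Members of a gene family can share probe sequence, and their values may not be independent.

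The same genes were set beside the Ly6C-low fraction, whose 2 arrays are not used in the Ly6C-hi difference. There, 0.81% of 4444 genes passed 2-fold on the lower side and 6.89% on the higher. Of the 559 genes at least 2-fold lower in Ly6C-hi that also reached 6 in Ly6C-low, 13 were at least 2-fold lower there, 25 higher and 521 within 2-fold, with a median of 0.10. Across 3548 genes at 6 or more in both fractions Pearson's r between the 2 differences was -0.11 and Spearman's rho -0.12, a description across genes that share their arrays. Of all 3548 genes 559 were at least 2-fold lower in Ly6C-hi, and of the 29 that were lower in Ly6C-low 44.8% were. The 13 genes lower in both fractions were 2.33% of the 559, against 0.817% of all 3548 genes. They were Ptgs2, Clec4d, Gpnmb, Thbs1, Adam8, Pf4, Il7r, Mmp8, Cbr2, S100a8, Alox15, Ppbp and Gnmt. Il7r turned to 0.026 in Ly6C-hi after the lowess fit, which at its mean level follows the floor. Gpnmb, a glycoprotein of lipid-loaded macrophages, read 10.02 and 8.30 in Ly6C-low, and the matrix protein gene Thbs1 differed by -1.91 and, among the Ly6C-low arrays, by -1.06. The list medians in Ly6C-low were -0.12 for IL-1 family, -0.60 for CXC chemokine, 0.06 for NF-kB, 0.18 for immediate early and -0.30 for neutrophil genes, beside -2.03, -1.54, -1.09, -0.65 and -2.27 in Ly6C-hi. Lipid-loaded macrophage, coagulation and matrix protease genes stood at -0.60, -0.63 and -0.60 in Ly6C-low, beside -0.94, -1.24 and -0.77 in Ly6C-hi. Class II genes stood at 0.56, beside 0.14. The difference between the fractions has 1 array per group and was not tested.

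**Figure D5:**
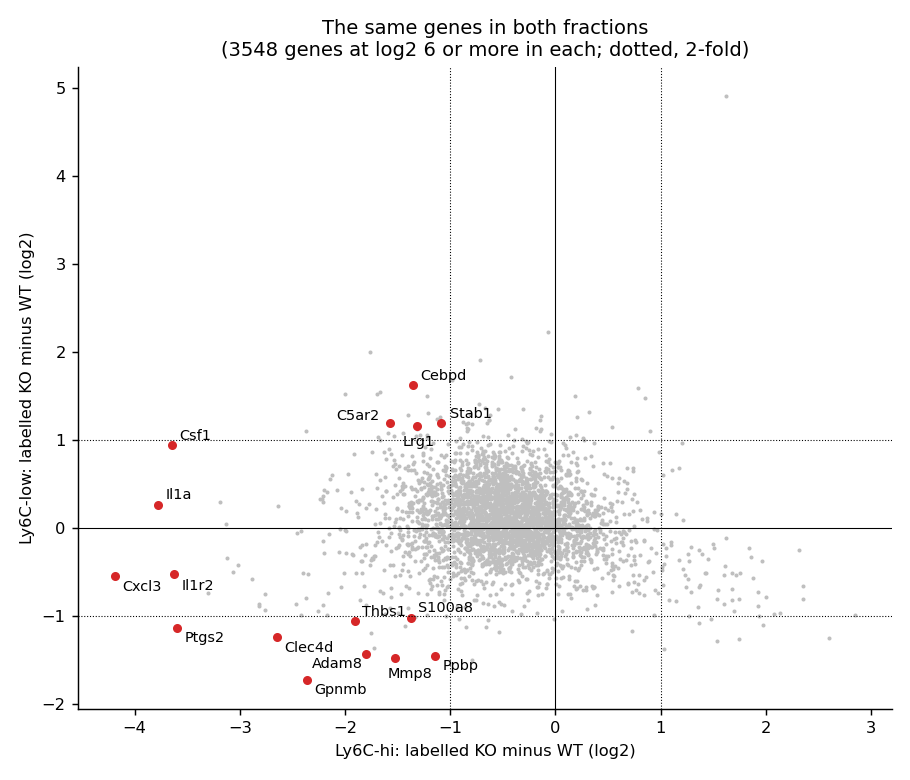
Labelled KO minus WT in Ly6C-hi (horizontal) against the same difference in Ly6C-low (vertical), in log2, for 3548 genes at a level of 6 or more in both fractions. Dotted lines mark 2-fold and red points are genes named in the text. Cxcl3, Il1a, Il1r2 and Csf1 lie far to the left and within 2-fold vertically, while Ptgs2, Gpnmb and Clec4d are low on both axes. The single point at the top is the predicted gene Gm3893 (1.62 and 4.91).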

How the data were processed

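Liver macrophages were measured on Mouse Gene 2.0 ST arrays, 1 array per group and 4 in all. The authors deposited log2 values made with RMA, which corrects background, normalises between arrays and summarises probes, per the submitters' processing notes. Its version, its settings and the annotation's genome build are not stated by the labels. The deposited arrays were not equally distributed, with an SD over all probe sets of 1.83 in WT and 1.69 in labelled KO Ly6C-hi.

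Of 41345 probe sets, 23521 carried 1 gene symbol, 1814 several and 16010 none in the platform annotation. Of those with 1 symbol, 23328 matched RefSeq (GRCm38.p6) by gene identifier. Only 1-symbol probe sets were used, which gave 22180 genes. A gene was used at a log2 value of at least 6 in the brighter Ly6C-hi array. Differences were computed with Python 3.11.15, numpy 2.4.6 and pandas 2.3.3, and lowess fits with statsmodels 0.14.6. The code that calls differences was run on simulated arrays, with changes placed only in genes well above the floor and less spread than in these data. It was scored on the centred and lowess scales alone. The run checks the code and says nothing of the as-deposited counts or of genes near the floor. No p-value was computed, since each group has 1 array.

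The named genes are Ptges and Ly6c2, the 15 largest differences each way past 2-fold, leaving out predicted genes, RIKEN genes, small RNAs, pseudogenes and receptor segments (and, on the higher side, chemosensory receptors), and any member of 51 gene lists above the floor. The members and lists were chosen with earlier results of these data known. Alternatives tried were centring, quantile and lowess scaling, floors of 5 and 7, no floor, a floor on the mean, and other ways to choose probe sets.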

Additional observations from a re-analysis of the deposited data

Results flagged for a closer look

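Genes of the lists that passed 2-fold on the lower side in Ly6C-hi and on the higher side in Ly6C-low were looked at again. The difference was not tested, since each group has 1 array, and this choice of genes fixes a wide gap in advance. The median gene itself differed by -0.53 in Ly6C-hi and 0.15 in Ly6C-low, which adds to each gap below. Cebpd, a transcription factor gene of the acute response, differed by -1.35 in Ly6C-hi and 1.62 in Ly6C-low, which are 2.98 apart. C5ar2, a receptor for the complement fragment C5a, differed by -1.57 and 1.19, 2.76 apart. Lrg1, a secreted glycoprotein gene of the neutrophil list, differed by -1.32 and 1.15, 2.47 apart. Stab1, a scavenger receptor gene that sinusoidal endothelium also expresses, differed by -1.09 and 1.19, 2.28 apart. When centred, the Ly6C-hi differences were -0.82 for Cebpd, -1.04 for C5ar2, -0.79 for Lrg1 and -0.55 for Stab1. C5ar2 alone was then still at least 2-fold lower. The summed sinusoidal endothelial markers read 13.27 in WT and 14.52 in labelled KO Ly6C-low, and their part in the Stab1 difference was not tested.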

How the results depend on the processing

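The 2-fold counts depended on the scaling and the floor. As deposited, 103 genes were higher and 910 lower, so 89.8% of the genes past 2-fold were lower. That share was 51.6% when centred (267 higher and 285 lower), 75.1% after quantile scaling of the arrays (171 and 517) and 49.2% after a lowess fit on level (262 and 254). The 285, 517 and 254 lower genes were all among the 910, and the 103 higher genes were kept under these 3 scalings. Centring raises every difference alike, so its overlap was fixed in advance. Quantile and lowess scaling also moved the median up, from -0.53 to -0.22 and 0.02, so the overlap is no measure of stability. With a floor of 5 the counts were 230 and 1076, with a floor of 7 they were 43 and 552, with no floor 512 and 1147, and with the floor on the mean of both arrays 56 and 669. Centred counts were 554 and 493 with a floor of 5, 123 and 191 with a floor of 7, 406 and 1352 with no floor, and 162 and 226 with the floor on the mean. Under lowess 3 named genes changed sign: Gclm to 0.18, Icosl to 0.20 and Il7r to 0.026. All 3 entered through the WT array alone. The fit used only genes past the floor, and at a mean level below 6 such genes had to differ. The fitted trend there follows the floor, so these sign changes cannot judge the 3 genes. No paired analysis was possible because each group has 1 array and the labels give no replicate numbers. For the same reason no replicate could be left out. The precision of every difference is limited by the number of arrays, and values near the dim end of the scale give only rough sizes.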

Other observations

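Probe sets that carry no gene symbol or several had another balance. Of 17824 such probe sets 3508 read at least 6 in the brighter Ly6C-hi array, and 718 of these were at least 2-fold higher under the KO label (20.5%) and 572 lower (16.3%), with a median of -0.03, against -0.53 for the 4410 genes. Of 16 lower genes with at least 2 probe sets above the floor, 15 had all of them negative and 7 had all of them at least 2-fold lower. These genes were chosen because 1 probe set was already at least 2-fold lower, and 3672 of the 4410 genes were negative. The agreement was thus partly fixed in advance and is no check. The second probe sets of Cass4, G0s2 and Slc7a11 were below the floor in both arrays and differed by 0.25, -1.35 and -1.93, against -3.32, -3.05 and -3.59 for the first.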
